A study of Rattus norvegicus with 6 samples.

Results

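The S100 calcium-binding proteins were followed in the transcriptome of cultured rat spinal cord neurons in which galectin-3 (GAL3, gene Lgals3) had been knocked down with siRNA. The genes were taken by symbol, and all 10 (S100A1, S100A4, S100A6, S100A8, S100A9, S100A10, S100A11, S100A13, S100A16 and S100B) were found among the 17648 genes of the expression matrix. RNA of 6 cultures was sequenced, 3 from the transfection control group (siR-Con) and 3 from the GAL3 siRNA group (siR-GAL3). The cells came from the spinal cord of neonatal Sprague-Dawley rats and were cultured for 3 days before treatment. Ara-C, a blocker of dividing cells, was added the day after plating.

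The study design states that glutamate, which injures neurons by overstimulation, was given to all 6 cultures. It was applied at 10 μM for 1 h and was followed by 16 h in medium without glutamate. The treatment label of the siR-Con samples instead names saline with the control transfection, that is 0 μM. If that label holds, glutamate and the GAL3 siRNA cannot be told apart in any comparison between the groups. The labels call the siR-GAL3 cells a knockout, whereas the methods describe an siRNA knockdown. The labels do not say whether the 3 samples of a group were separate preparations. The methods describe independent repeats for the study's data in general, without naming these samples. The p-values therefore measure the spread between these samples as deposited, which may be technical. Per the methods, batch effects and differences within groups were corrected before deposit. That may have altered the spread on which the SDs, p-values and overlaps rest.

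S100 proteins are small proteins with a pair of EF-hand calcium-binding loops. Most form dimers that open on calcium binding and then grip target proteins, among them annexins and cytoskeletal proteins. Some are also released from cells and act on the receptor RAGE (gene Ager), and the S100A8-S100A9 dimer acts on Toll-like receptor 4. In the central nervous system S100B is best known as a protein of astrocytes, and S100A8 and S100A9 as proteins of neutrophils and monocytes.

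LGALS3, the targeted gene, had expression values of 77.4, 54.4 and 62.4 in the siR-Con libraries and -1.64, 32.3 and 18.5 in the siR-GAL3 libraries. The difference between the means was -74.7%, and the groups did not overlap. The values are on a linear scale that the authors derived from FPKM, reads per gene length and library size, and corrected afterwards, so that values below 0 occur. The sequencing depth of the libraries is unknown. The siR-GAL3 replicate 2 library stood apart from the rest. On the main axis of a principal component analysis, which held 65.2% of the variance, it lay at 27.9 and the other 5 libraries between -8.52 and -1.94. The libraries also fell into 3 sets by values that were exactly equal, with the replicates 1 of both groups in one set, siR-GAL3 replicate 3 and the remaining siR-Con libraries in another, and siR-GAL3 replicate 2 alone. Within a set, pairs of libraries shared 1312 to 1463 equal values other than 0, and between sets 238 to 264. What the sets are is not stated by the labels.

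The label of spinal cord neurons was compared with marker genes. The sum of 11 neuron markers was 32.1 to 36.9 in siR-Con and 29.9 to 37.1 in siR-GAL3, and RBFOX3, the gene of the neuronal protein NeuN, lay between 0.300 and 0.429. SLC17A6 and CHAT, markers of glutamatergic and cholinergic neurons, had means under 0.1. The sum of 10 astrocyte markers was 998 to 1128 in siR-Con and 844 to 900 in siR-GAL3, and that of 11 oligodendrocyte lineage markers 1076 to 1149 and 1085 to 1409. The sum of 14 microglia markers was 139 to 165 in siR-Con and 175 to 197 in siR-GAL3. GFAP alone was 515 to 758 and MBP alone 629 to 919, so single genes made up much of the astrocyte and oligodendrocyte sums. Sums over different lists do not give the share of each cell type. Glial transcripts such as GFAP and MBP were abundant beside neuronal ones in all 6 libraries, and a gene's level here is that of the whole culture. In such bulk samples fewer cells of a type and less RNA per cell cannot be told apart.

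In the RefSeq annotation of the rat assembly GRCr8, 9 of the 10 genes lie on chromosome 2 and S100b on chromosome 20. S100a1 and S100a13 are direct neighbors there, as are S100a8 and S100a9, and S100a4 and S100a6 are separated by S100a5 alone. The matching promoter table held 7 of the 10 genes, without S100a1, S100a8 and S100a10. The 250 bases before the annotated start are shown for S100a6 and S100a11, the genes with the largest fitted differences between the groups, for S100a4 as the close neighbor of S100a6, and for S100b as the most abundant transcript of the family. They span chr2:178398287-178398536 (plus strand), chr2:181874882-181875131 (plus strand), chr2:178388279-178388528 (plus strand) and chr20:12381082-12381331 (minus strand). The sequences run 5′ to 3′ along the gene and end at the base before the start, and capitals mark the motifs found.
S100a6: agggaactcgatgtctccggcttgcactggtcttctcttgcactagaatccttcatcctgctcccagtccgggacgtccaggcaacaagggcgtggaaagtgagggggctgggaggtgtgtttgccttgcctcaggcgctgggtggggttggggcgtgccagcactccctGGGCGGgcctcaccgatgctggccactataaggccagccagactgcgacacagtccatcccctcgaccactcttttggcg
S100a11: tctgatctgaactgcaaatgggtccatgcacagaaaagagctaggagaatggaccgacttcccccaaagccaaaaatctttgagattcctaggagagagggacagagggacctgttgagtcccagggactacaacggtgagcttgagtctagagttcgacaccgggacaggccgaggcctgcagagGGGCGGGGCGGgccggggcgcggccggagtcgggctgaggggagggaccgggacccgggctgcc
S100a4: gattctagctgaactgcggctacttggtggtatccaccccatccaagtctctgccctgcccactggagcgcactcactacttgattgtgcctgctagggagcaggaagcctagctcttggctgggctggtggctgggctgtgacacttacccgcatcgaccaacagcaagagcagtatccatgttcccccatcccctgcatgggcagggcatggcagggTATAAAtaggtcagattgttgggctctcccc
S100b: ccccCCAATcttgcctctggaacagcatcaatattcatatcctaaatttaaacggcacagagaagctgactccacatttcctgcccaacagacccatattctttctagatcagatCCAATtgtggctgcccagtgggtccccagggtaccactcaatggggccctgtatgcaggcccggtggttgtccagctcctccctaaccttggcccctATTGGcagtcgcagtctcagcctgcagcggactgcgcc

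The windows were searched on both strands for the letters TATAAA as a TATA box and for GGGCGG as a GC box. The CCAAT box and the AP-1 motif TGACTCA were searched in the same way. S100a6 held a GC box that begins 80 bases before the start. S100a11 held a pair of GC boxes that begin 64 and 59 bases before it and overlap by 1 base. S100a4, although close to S100a6 on the chromosome, had no GC box but a TATA box 31 bases before the start. S100b had CCAAT boxes 246 and 135 bases before its start and a further one on the opposite strand at 38 bases. None of the 7 windows held the AP-1 motif. Of all 33469 promoter windows of the table, counted with the 50 bases after the start, 33.1% held the GC box, 14.2% the TATA box, 37.5% the CCAAT box and 4.63% the AP-1 motif.

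The levels of the 10 genes covered a wide range. S100B was the highest, with a mean of 79.1 over the 6 libraries (range 70.4 to 84.3), above 99.7% of all genes listed. S100A10 followed at 35.2 (29.8 to 41.8) and S100A11 at 16.9 (13.3 to 24.7), and these 3 genes did not overlap with each other in any library. S100A1 (5.005, range 3.71 to 6.77) and S100A16 (4.40, range 3.96 to 5.40) came next, with overlapping ranges, and S100A1 was above S100A16 in 5 of 6 libraries. S100A4 at 1.68 overlapped with S100A6 at 1.41, and S100A6 with S100A13 at 1.07, while S100A4 stayed below S100A16 in every library. S100A8 and S100A9 were at 0.0111 and 0.00635, near the floor of the matrix. Together the 10 genes summed to 147, 141 and 147 in siR-Con and 138, 166 and 130 in siR-GAL3, of which S100B made up 48.3% to 58.4%.

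**Figure D1:**
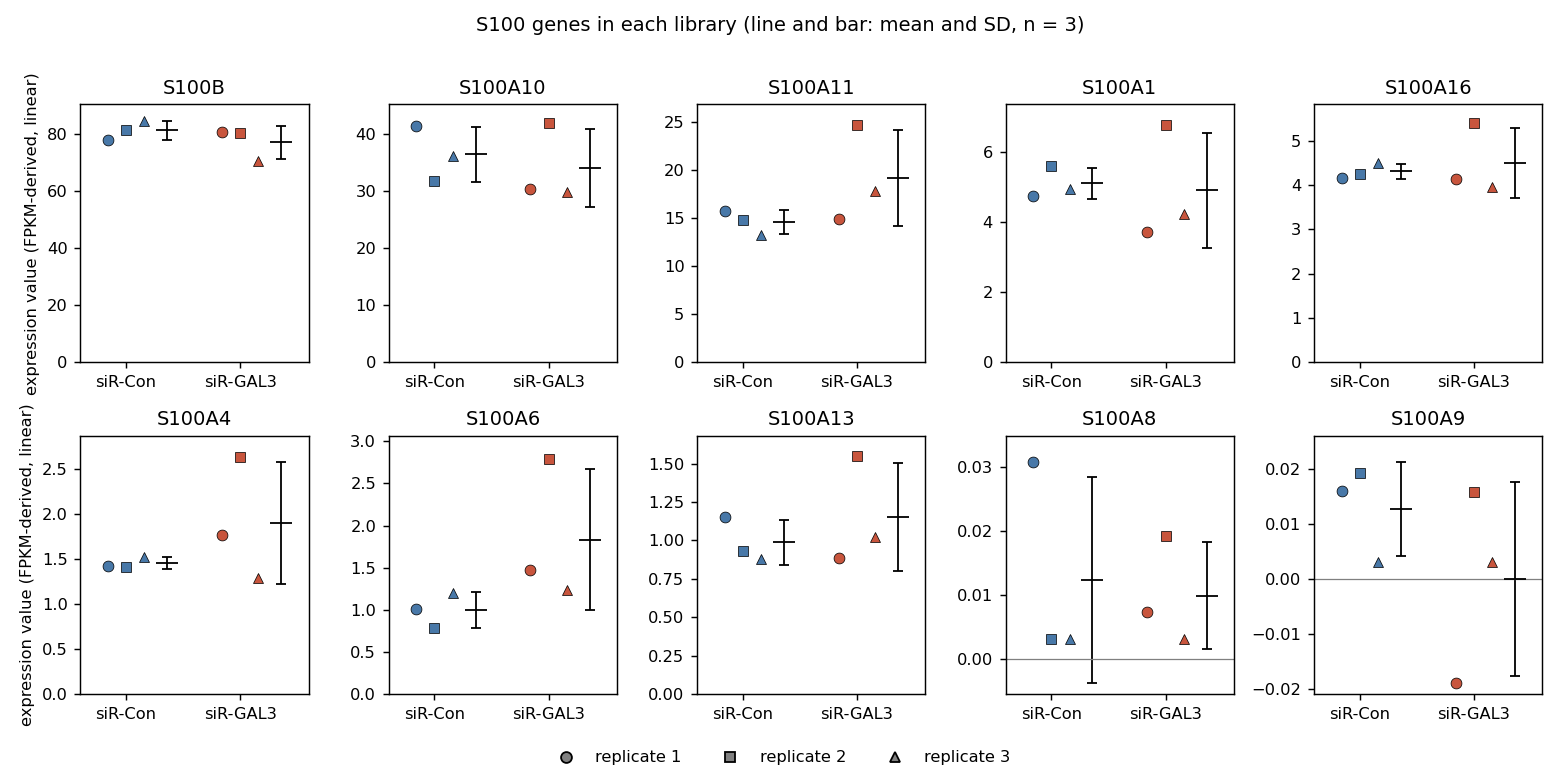
Expression values (derived from FPKM, linear scale) of the 10 S100 genes in the siR-Con (blue) and siR-GAL3 (red) libraries, with symbols for replicates 1 to 3 and the mean with SD (n = 3) beside them. S100A6 alone among the tested genes shows no overlap between the groups, and 7 of the 8 tested genes are highest in siR-GAL3 replicate 2.

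The question was whether the transcripts of the S100 family differed between the GAL3 knockdown and its control. No S100 gene passed the test across all genes. S100A6 had the largest fitted difference and was higher in every siR-GAL3 library than in any siR-Con library, and S100A11 and S100A4 had higher means in siR-GAL3 with overlapping groups. S100B and S100A10, the most abundant transcripts, had slightly lower means in siR-GAL3, also with overlap. Of the 10 genes, 8 had a mean of at least 1 and were tested with limma among 8495 genes on log2(value + 1), a scale that understates changes of low genes. None of the 8 had an adjusted p under 0.05 (Benjamini-Hochberg), as was the case for 0% of all genes tested. LGALS3, the targeted gene, did not pass either, with a log2 fold change of -2.91 (SE 1.20) and an adjusted p of 0.571 in limma. An unadjusted p under 0.05 was found for 1 of the 8, S100A6, against 8.66% of all genes tested (4.41% higher and 4.25% lower in siR-GAL3). S100A6 reached the mean of 1 only through siR-GAL3 (1.83), as its siR-Con mean was 0.995, and S100A13 did likewise (1.15 and 0.987). Without the filter S100A6 had an unadjusted p of 0.076 in limma. None of the 8 had a log2 fold change beyond 1 in either direction with an unadjusted p under 0.05, which 0.318% of all genes did. The study gives these criteria, called the study criteria below, in its account of public datasets. For sequencing its supplement names DESeq with an adjusted p under 0.05. The share is therefore not set against the study's own count. The groups did not overlap for 1 of the 8, against 20.5% of all genes (10.3% with siR-GAL3 higher). The median log2 fold change of the 8 genes was 0.074, with 5 higher and 3 lower, and that of all genes tested -1.19e-05. This split turned to 3 higher and 5 lower without siR-GAL3 replicate 2, with a median of -0.047. The split did so too in a fit with the library sets as blocks, with a median of -0.051. As siR-GAL3 replicate 2 was alone in its set, the block removed it from the group difference, so these settings were not independent.

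S100A6, or calcyclin, binds the calcyclin-binding protein CACYBP and several annexins. Its values were 1.00, 0.780 and 1.20 in siR-Con and 1.47, 2.79 and 1.23 in siR-GAL3. All 3 siR-GAL3 libraries were above all 3 siR-Con libraries, but siR-GAL3 replicate 3 exceeded siR-Con replicate 3 only narrowly, and siR-GAL3 replicate 2 was far above the rest. The means were 0.995 ± 0.211 and 1.83 ± 0.839 (SD, n = 3 each), a difference of 84.0%. In limma the log2 fold change was 0.47 (SE 0.20, 95% confidence interval 0.0046 to 0.94), just past the unadjusted threshold of 0.05, with an adjusted p of 0.574. The exact two-sided permutation test gave p = 0.1, the smallest that 3 against 3 samples allow. Within the library sets, S100A6 was 0.30 higher on the log2 scale in siR-GAL3 in the set of replicates 1, and 0.17 higher in the set of siR-GAL3 replicate 3. Without siR-GAL3 replicate 2 the S100A6 difference was 0.24 (SE 0.09), still past the unadjusted threshold, with an adjusted p of 0.256. It was no longer past that threshold when any of the siR-Con libraries was left out, with log2 fold changes of 0.48, 0.39 and 0.54 (adjusted p = 0.772, 0.861 and 0.874) without replicates 1, 2 and 3. Both blocked fits also left it short of the threshold, at 0.23 (adjusted p = 0.368) with the library sets as blocks and at 0.47 (adjusted p = 0.695) with the replicate number as a block.

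S100A4, known as metastasin, binds the heavy chain of nonmuscle myosin IIA. It was listed at 1.42, 1.42 and 1.53 in siR-Con and at 1.77, 2.64 and 1.29 in siR-GAL3. The siR-Con libraries lay close together, and the siR-GAL3 libraries lay on both sides of them. The fitted difference was 0.21 on the log2 scale (SE 0.16), with an adjusted p of 0.622 in limma. It became 0.04 without siR-GAL3 replicate 2 and, past the unadjusted threshold, 0.37 (adjusted p = 0.535) without siR-GAL3 replicate 3. The neighbors S100A4 and S100A6 both had their highest value in siR-GAL3 replicate 2. They were among 7 of the 8 tested S100 genes, and 41.5% of all genes tested, that were highest there. S100A5, which lies between them on the chromosome, was listed from -0.00208 to 0.0135 and was not tested.

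S100A11 and S100A10 are best known for binding annexins, with annexin A1 and annexin A2 as their main partners. S100A11 had values of 15.8, 14.8 and 13.3 in siR-Con and of 14.9, 24.7 and 17.8 in siR-GAL3. The libraries siR-GAL3 replicate 2 and replicate 3 were above all siR-Con libraries, and replicate 1 was within their range. The means were 14.6 ± 1.25 and 19.2 ± 5.03 (SD, n = 3 each), and the log2 fold change was 0.34 (SE 0.17, 95% confidence interval -0.06 to 0.75) with an adjusted p of 0.585 in limma. Without siR-GAL3 replicate 2 it was 0.15, and without siR-GAL3 replicate 1 it was 0.50, past the unadjusted threshold (adjusted p = 0.319). The GRCr8 annotation lists 5 pseudogenes of S100a11 and 2 genes named as like it, and 1 pseudogene of S100a10. How reads shared with these copies were counted is not stated, so the levels of both genes are uncertain to that extent.

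S100A10, also called p11, has EF-hands that no longer bind calcium and stays bound to annexin A2 at membranes. Its values were 41.3, 31.8 and 36.1 in siR-Con and 30.3, 41.8 and 29.8 in siR-GAL3. Replicates 1 and 3 of siR-GAL3 were below every siR-Con library, and replicate 2 was above them all. For S100A10 the log2 fold change was -0.10 (SE 0.15, 95% confidence interval -0.47 to 0.26) with an adjusted p of 0.757 in limma. Without siR-GAL3 replicate 2 it was -0.26, past the unadjusted threshold (adjusted p = 0.256), and the groups then did not overlap. Within the library sets it was -0.43 and -0.18.

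**Figure D2:**
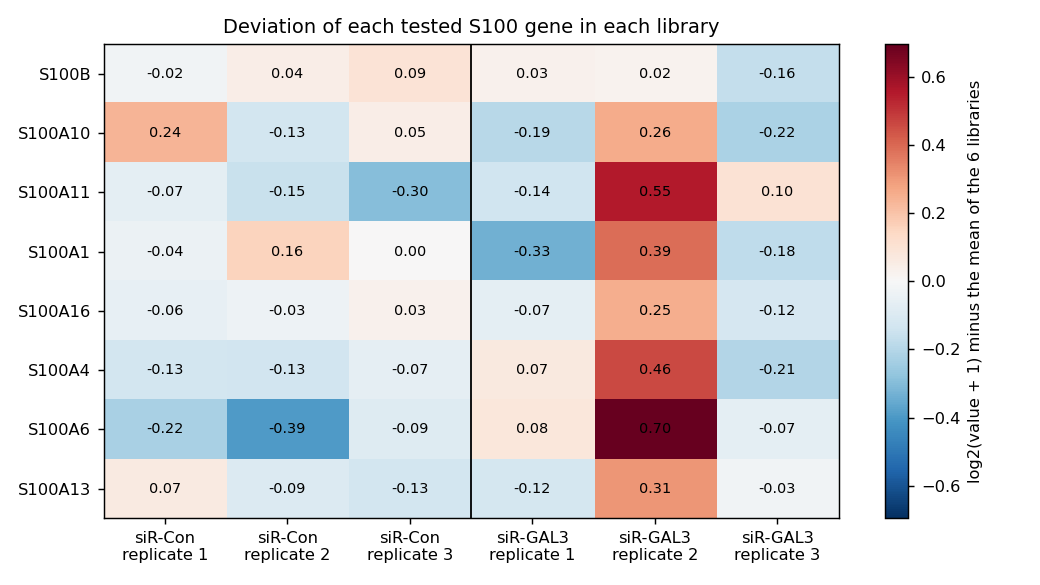
Deviation of log2(value + 1) from the mean of the 6 libraries for the 8 tested S100 genes (rows) in each library (columns), with the color scale and printed numbers in log2 units. All 8 genes are above their mean in siR-GAL3 replicate 2, from 0.02 for S100B to 0.70 for S100A6.

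S100B, the calcium sensor that astrocytes also secrete, was the most even member. Its values were 77.7, 81.4 and 84.3 in siR-Con and 80.5, 80.2 and 70.4 in siR-GAL3. The groups overlapped, with the lowest value in siR-GAL3 replicate 3. The means were 81.1 ± 3.28 and 77.0 ± 5.78 (SD, n = 3 each), and the log2 fold change was -0.08 (SE 0.08, 95% confidence interval -0.27 to 0.11) with an adjusted p of 0.680 in limma. Astrocyte markers were set beside it, and 8 of the 10 were lowest in siR-GAL3 replicate 2, where S100B was 80.2. GFAP was 571 to 758 in siR-Con and 515 to 533 in siR-GAL3, 8 of the 10 astrocyte markers were lower in siR-GAL3, and 5 of these had an unadjusted p under 0.05, as did 4.25% of all genes in that direction. Their part in the level of S100B was not tested.

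S100A1, which takes part in calcium handling of muscle and nerve cells, had values of 4.76, 5.61 and 4.94 in siR-Con and of 3.71, 6.77 and 4.25 in siR-GAL3. As for S100A10, siR-GAL3 replicates 1 and 3 were below every siR-Con library and replicate 2 was above them all. S100A1 had a log2 fold change of -0.08 (SE 0.18, adjusted p = 0.843 in limma) over all libraries, of -0.29 (adjusted p = 0.111) without siR-GAL3 replicate 2 and of 0.067 without siR-GAL3 replicate 1. When the fit held the library sets as blocks, S100A1 was at -0.27 (adjusted p = 0.142) and S100A10 at -0.29 (adjusted p = 0.215), both past the unadjusted threshold. In the same fit S100A6, S100A11 and S100A4 were smaller than over all libraries without the blocks, at 0.23, 0.16 and 0.021. S100A13, needed for the release of FGF1 from cells, ranged from 0.879 to 1.15 in siR-Con and from 0.887 to 1.55 in siR-GAL3, with a log2 fold change of 0.11 (SE 0.12, adjusted p = 0.696). S100A16 ranged from 4.16 to 4.49 and from 3.96 to 5.40, with a log2 fold change of 0.04 (SE 0.11, adjusted p = 0.858). For both of these genes the sign turned without siR-GAL3 replicate 2, to -0.022 and -0.072. The chromosomal neighbors S100A1 and S100A13 had differences of opposite sign over all 6 libraries, and neither difference exceeded its error.

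Most S100 genes had their highest value in siR-GAL3 replicate 2. Of the 8 tested S100 genes, 7 were highest there, the exception being S100B, which was highest in siR-Con replicate 3. Of all genes tested, 41.5% were highest in that library and 35.1% lowest. The ratio of its value to the mean of the other 5 libraries ran from 1.02 for S100B through 1.23 for S100A10 and 1.61 for S100A11 to 1.78 for S100A4 and 2.45 for S100A6. Without it, 3 of the 8 genes (S100A1, S100A6 and S100A10) had an unadjusted p under 0.05, against 16.3% of all genes, and 4 (those 3 and S100A16) did not overlap between the groups, against 33.7%. None had an adjusted p under 0.05. The fit with the sets as blocks likewise left siR-GAL3 replicate 2 out of the group difference. In it, 2 of the 8 (S100A1 and S100A10) had an unadjusted p under 0.05, against 13.8% of all genes.

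**Figure D3:**
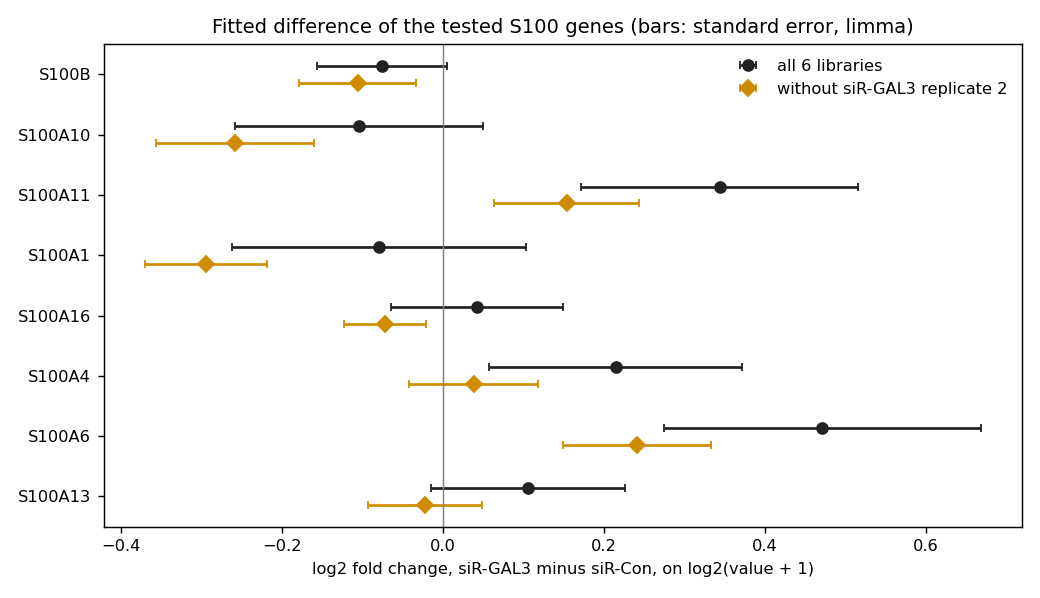
Fitted log2 fold change (siR-GAL3 minus siR-Con, on log2(value + 1), horizontal axis) of the 8 tested S100 genes with all 6 libraries (black circles) and without siR-GAL3 replicate 2 (orange diamonds), bars showing the standard error from limma. Without that library the values of S100A6 and S100A11 are smaller (0.24 and 0.15) and those of S100A1 and S100A10 lie further below 0 (-0.29 and -0.26).

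S100A8 and S100A9, the subunits of calprotectin, were at the floor. S100A8 had values of 0.0309, 0.00309 and 0.00309 in siR-Con and of 0.00736, 0.0193 and 0.00309 in siR-GAL3. S100A9 had values of 0.0159, 0.0193 and 0.00302 in siR-Con and of -0.0188, 0.0158 and 0.00302 in siR-GAL3. The lowest value of S100A8 was shared exactly by the 3 libraries of one set (siR-Con replicate 2, siR-Con replicate 3 and siR-GAL3 replicate 3), and siR-Con replicate 3 and siR-GAL3 replicate 3 shared a value of S100A9. Of all genes listed, 26.5% had a mean under 0.1. Neutrophil markers were similarly low, with 8 of the 9 listed at a mean under 0.1 and a sum of 0.436 to 0.487 in siR-Con and 0.523 to 0.619 in siR-GAL3. The exact permutation p was 1.0 for S100A8 and 0.3 for S100A9. S100A3 (0.0807 to 0.146) and S100A7A (-0.00916 to 0.0144) were also listed and were too low to be tested, and other S100 genes were not analysed here.

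Of the proteins that S100 dimers bind inside cells, 23 of a list of 24 were among the genes and 19 were tested. Of these, 10 were higher and 9 lower in siR-GAL3, 2 had an unadjusted p under 0.05 (both higher, against 4.41% of all genes), and the groups did not overlap for 7 (against 20.5% of all genes). Their median log2 fold change was 0.00525. Both genes with an unadjusted p under 0.05 were annexins, calcium-dependent membrane-binding proteins. ANXA1, which binds S100A11 and is an anti-inflammatory mediator, was at 4.26, 2.97 and 3.25 in siR-Con and at 4.61, 5.73 and 5.23 in siR-GAL3. ANXA1 had a log2 fold change of 0.47 (SE 0.12) and an adjusted p of 0.333 in limma. ANXA2, the partner of S100A10, was at 11.33, 9.965 and 10.22 in siR-Con and at 11.57, 14.33 and 11.96 in siR-GAL3. Its log2 fold change was 0.24 (SE 0.10), with an adjusted p of 0.566. For both annexins all siR-GAL3 libraries were above all siR-Con libraries. ANXA6 also had no overlap (9.40 ± 0.446 and 10.2 ± 0.418, SD, n = 3 each), with a log2 fold change of 0.11, and did not pass the unadjusted threshold. CACYBP, the partner of S100A6, was at 12.8 ± 0.376 in siR-Con and 14.6 ± 2.35 in siR-GAL3 (SD, n = 3 each). Its log2 fold change of 0.16 did not pass the unadjusted threshold.

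S100A10 was set against ANXA2, since their proteins occur as a complex. The ratio of the expression values was 3.65, 3.19 and 3.53 in siR-Con and 2.62, 2.92 and 2.49 in siR-GAL3. All siR-GAL3 libraries were below all siR-Con libraries, siR-GAL3 replicate 2 included, where S100A10 and ANXA2 were both highest. The means were 3.45 ± 0.237 and 2.68 ± 0.218 (SD, n = 3 each), a difference of -22.5%, and the exact two-sided permutation p was 0.1, the smallest possible. On the log2 scale the difference was -0.37, and -0.43 without siR-GAL3 replicate 2 (exact permutation p = 0.1). Of 6 such ratios of an S100 gene to a partner, this was the only one whose groups did not overlap. The pairs were chosen after the values of the genes had been seen. Among the single genes tested, 20.5% did not overlap. The ratio of S100A11 to ANXA1 was 4.26 ± 0.651 and 3.66 ± 0.579 (SD, n = 3 each), with overlap and an exact permutation p of 0.3. The ratio of S100A6 to CACYBP was 0.0781 ± 0.0176 and 0.123 ± 0.0368, with an exact permutation p of 0.2.

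**Figure D4:**
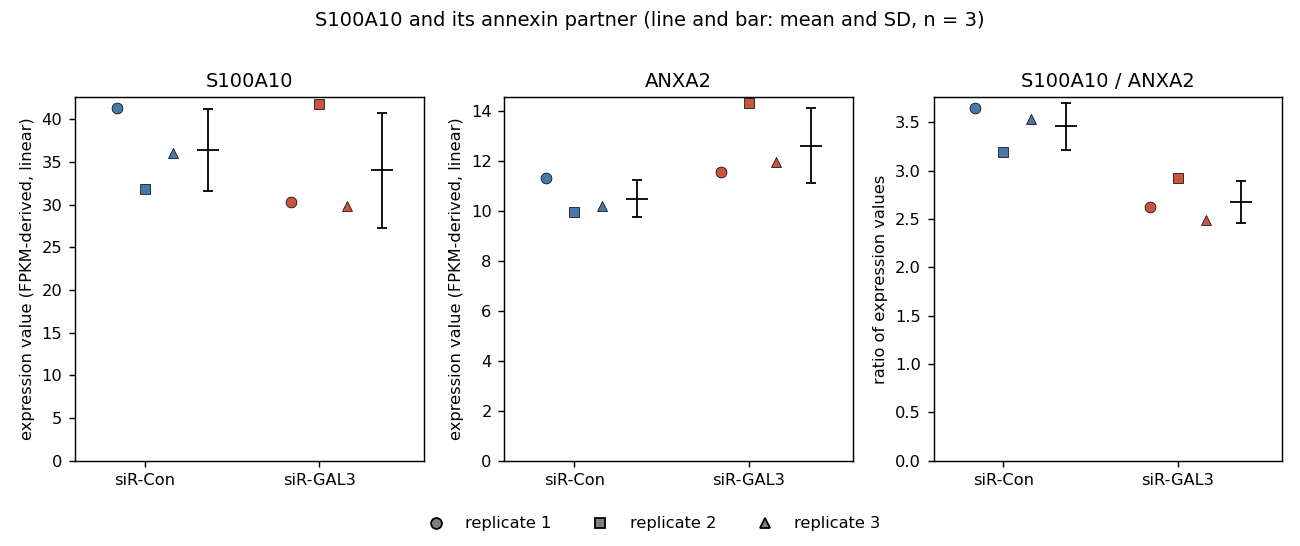
Expression values (derived from FPKM, linear scale) of S100A10 and ANXA2 and the ratio of S100A10 to ANXA2 in the 6 libraries, with symbols for replicates 1 to 3 and the mean with SD (n = 3) beside them. S100A10 overlaps between the groups, ANXA2 does not, and the ratio is 3.19 to 3.65 in siR-Con and 2.49 to 2.92 in siR-GAL3.

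Of 14 genes for receptors of released S100 proteins and their signaling, 13 were listed and 8 tested. Their means were higher in siR-GAL3 for 4 and lower for 4, and the median of their log2 fold changes was -0.00233. AGER, the gene of RAGE, was at 1.047 ± 0.0661 in siR-Con and 1.042 ± 0.188 in siR-GAL3 (SD, n = 3 each), with a log2 fold change of -0.01 (SE 0.08). TLR4 ranged from 0.150 to 0.244 and from 0.215 to 0.300 and was too low to be tested. NFKBIA, an inhibitor and transcriptional target of NF-κB, was the only one of the 8 with an unadjusted p under 0.05, a share near the 8.66% of all genes. It was at 5.22, 4.59 and 5.02 in siR-Con and at 5.89, 7.01 and 5.30 in siR-GAL3, without overlap. Its log2 fold change was 0.24 (SE 0.10), with an adjusted p of 0.574 in limma. Microglia markers were higher in siR-GAL3 beside these genes, 12 of 13 tested and 6 of them with an unadjusted p under 0.05 (4.41% of all genes in that direction). Fibroblast and mural markers summed to 51.8 to 58.4 in siR-Con and 40.9 to 47.5 in siR-GAL3, with 2 of 7 tested higher and 5 lower. The part of these cell types in the levels of the annexins, S100A4, S100A6, S100A11 and NFKBIA was not tested.

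Other EF-hand genes, such as those of calmodulin and the neuronal calcium sensors, were compared in the same way. All 21 of the list were found and 13 tested, of which 5 were higher and 8 lower in siR-GAL3, and 7 were highest in siR-GAL3 replicate 2. The median of their log2 fold changes was -0.027. PVALB, the calcium buffer parvalbumin of fast-firing neurons, was the only one of the 13 with an unadjusted p under 0.05, a share near the 8.66% of all genes. It was at 1.98, 2.47 and 0.774 in siR-Con and at 0.636, 0.780 and 0.297 in siR-GAL3, so that siR-Con replicate 3 lay just below the highest siR-GAL3 library. PVALB had a log2 fold change of -0.76 (SE 0.25) and an adjusted p of 0.489 in limma. It reached the mean of 1 needed for testing only through siR-Con, where its mean was 1.74, against 0.571 in siR-GAL3.

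S100A6 was the only S100 gene that ranged over more than 1 on the log2 scale among the libraries, and the genes closest to it in profile were sought over the 6 libraries. By the root mean square difference of the centered log2 profiles these were SEM1, a small subunit of the proteasome, and SLC24A5, a sodium, calcium and potassium exchanger, both with differences of 0.107 or less on the log2 scale. SEM1 was at 2.90, 2.83 and 3.00 in siR-Con and at 3.23, 6.25 and 3.34 in siR-GAL3. SLC24A5 was at 1.93, 2.04 and 2.77 in siR-Con and at 2.66, 4.41 and 2.63 in siR-GAL3. Neither passed the test between the groups, with adjusted p-values of 0.585 each in limma.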

How the data were processed

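RNA of 6 cultures was sequenced, and the deposited matrix held 1 column per library, mapped to its sample by name. Per the methods, the authors used STAR for alignment and HTSeq for counting per gene and estimated FPKM, after which batch effects were removed, the data standardized and differences within groups corrected by tools not named. The deposited values are therefore linear values derived from FPKM, no longer FPKM, and 13.5% of genes held a value below 0. The genome build is not given in the sources used here, and library preparation is described as ribosomal depletion in the labels and as poly-T selection in the supplement. Values below 0 were set to 0, and log2(value + 1) was fitted with limma 3.58.1 (intensity trend) in R 4.3.3 over 8495 genes with a mean of at least 1. The fit was run on simulated data with independent noise for each gene. That simulation held no outlying library and no library sets, so it does not show how the fit behaves on these data. Exact permutation tests, ratios and promoter searches were run in Python 3.11.15 with NumPy 2.4.6. The planned test had assumed FPKM. The S100 genes and the lists were chosen with earlier results of these data known. Genes named were all S100 genes listed, fixed partners (ANXA1, ANXA2, ANXA6, CACYBP, AGER and TLR4), members of the partner, receptor and EF-hand lists with an unadjusted p under 0.05, LGALS3, and the 2 closest profiles of any S100 gene with a log2 range over 1. RBFOX3, SLC17A6, CHAT, MAP2, ELAVL3, TUBB3, STMN2, MBP and GFAP were named outside this rule, after their values were seen, to describe the cultures. Alternatives were a minimum mean of 10 or none, a pseudocount of 0.1, quantile and median-ratio normalization, no trend, no log transformation, blocks of replicate number or library set, removal of genes with values below 0, and each library left out. The ratio without siR-GAL3 replicate 2 was added after the data were seen.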

Additional observations from a re-analysis of the deposited data

How the results depend on the processing

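The number of S100 genes with an unadjusted p under 0.05, 1 as reported, was 0 without a filter, 0 at a mean of at least 10 (3 genes tested), 0 on values not log-transformed, 0 with the replicate number as a block and 2 with the library sets as blocks, and ranged from 0 to 3 when 1 library was left out. It was 0 without siR-Con replicate 1, 2 or 3 (6.09%, 4.12% and 4.05% of all genes), 2 without siR-GAL3 replicate 1 (14.7%), 2 without replicate 3 (6.77%) and 3 without replicate 2 (16.3%). The number of partners and receptors with an unadjusted p under 0.05 was 3 of 27 as reported (8.66% of all genes). It was 5 of 36 without a filter (9.2% of all genes) and 1 of 7 at a mean of at least 10 (10.8%). With the replicate block it was 1 of 27 (6.39%), and with a library left out it ranged from 1 to 4 of 27 (4.05% to 16.3%). The number of S100 genes without overlap between the groups, 1 as reported, ranged from 1 to 4 with a library left out. The 4 were found without siR-GAL3 replicate 2, where 33.7% of all genes did not overlap, against 20.5% with all 6 libraries. No S100 gene had an adjusted p under 0.05 or met the study criteria in any of the 16 alternatives, in which 4.05% to 16.3% of all genes had an unadjusted p under 0.05 in limma. The median log2 fold change of the S100 genes, 0.074 as reported, was below 0 at a mean of at least 10 (-0.076), with the library set block (-0.051) and without siR-GAL3 replicate 2 (-0.047). Over all genes tested, adjusted p-values under 0.05 in limma numbered 0 as reported, 6 with the replicate block, 106 with the library set block and 167 without siR-GAL3 replicate 2. They numbered 17 without siR-Con replicate 1, 4 without siR-Con replicate 3, 1 without siR-GAL3 replicate 1 and 0 in the other alternatives. S100A13 and S100A16 turned to -0.032 and -0.071 with the library set block. With a library left out, S100A13 ranged from -0.022 to 0.19, S100A16 from -0.072 to 0.11 (both below 0 without siR-GAL3 replicate 2) and S100A1 from -0.29 to 0.067 (above 0 without siR-GAL3 replicate 1). The cause of these changes was not tested. S100A6 stayed above 0 in 15 of 15 alternatives, with p under 0.05 in 8 (adjusted p = 0.695 with the replicate block), S100A11 above 0 in 16 of 16 and S100B below 0 in 16 of 16. Of 123 single-gene alternatives, 105 kept direction and side of the threshold. Samples sharing a replicate number did not deviate together (correlations over genes of -0.17, -0.0699 and 0.0441), so the numbers were not used as pairs.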
